A study of Mus musculus with 3 samples.

Results

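The Six-family, Eya and Pax factors stand upstream of the muscle regulatory genes, and 9 of them were read here on 3 mouse arrays of C2C12 cells, a line of mouse myoblasts that fuse into myotubes when serum is lowered. The members were the probes whose gene name in the scanner files was Six2, Six4, Six5, Eya1, Eya2, Eya3, Eya4, Pax3 or Pax7. Each gene had 1 probe, so that 9 of the 23473 probes and of the 18356 gene names were followed. C2C12-DF was the parental line kept for 2 days in medium with 2% horse serum, in which the cells differentiate. C2C12-W4-08 was a single cloned line made from C2C12 by stable transfection with V5-tagged Wnt4 under the CMV promoter and selection with blasticidin, and it was kept for 2 days in medium with 10% fetal bovine serum. C2C12-PR was the untransfected parental line in that same medium for the same time. An array of a line carrying the empty vector was not analysed here, so that the transgene, the selection and the cloning cannot be told apart. The array of C2C12-W4-08 also came from another array order than the other two, so that the order is confounded with the condition and the pair cannot be told apart. With 1 array per condition there was no estimate of the error between cultures, and no test was made. The ± given with a signal is the spot error, made up of the spread of the blank spots and of the replicate control spots within that array, and the ± of a log2 ratio is this error carried through.

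Six-family proteins are homeodomain transcription factors that bind the MEF3 site, and Eya proteins are their co-activators, which do not bind DNA themselves and also carry a phosphatase domain. Dach proteins turn the same complexes towards repression. In the embryonic somite, Six4, Eya1 and Eya2 act together with Pax3 to switch on the muscle regulatory genes, and Pax7 marks the satellite cells from which adult muscle regenerates.

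The MEF3 site is shown first, since it ties these genes to their targets. RefSeq promoter windows of the assembly GRCm38.p6, from 250 bases before to 50 bases after a gene start, were at hand for 6 of the 9 members, Six2, Six4, Six5, Eya3, Eya4 and Pax7, with 8 windows in all. The letters TCAGGTTTC, or their reverse complement, were in 0.429% of the 32851 windows. Among the members they were in 1 window of Six4, as GAAACCTGA, from 99 to 91 bases before the start. The window of Myog, the gene of myogenin and a known Six-family target, is printed beside it because it holds the site as written, from 84 to 76 bases before the start. The capitals mark the MEF3 letters.

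Six4, chr12:73113196-73113495, minus strand: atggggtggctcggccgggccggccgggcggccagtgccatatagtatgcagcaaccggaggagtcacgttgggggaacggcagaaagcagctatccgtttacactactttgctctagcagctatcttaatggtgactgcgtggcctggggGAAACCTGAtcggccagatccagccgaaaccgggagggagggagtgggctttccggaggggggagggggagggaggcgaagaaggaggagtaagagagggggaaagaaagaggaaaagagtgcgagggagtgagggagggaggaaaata

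Myog, chr1:134289754-134290053, plus strand: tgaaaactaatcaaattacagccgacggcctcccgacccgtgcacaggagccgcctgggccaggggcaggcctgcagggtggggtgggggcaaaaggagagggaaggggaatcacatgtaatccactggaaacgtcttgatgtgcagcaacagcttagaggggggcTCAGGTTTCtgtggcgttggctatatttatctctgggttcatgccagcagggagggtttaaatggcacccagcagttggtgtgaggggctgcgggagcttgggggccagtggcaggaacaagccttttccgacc

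The E-box CANNTG, the letters bound by Myod1 and its relatives, was in 72.3% of all windows on either strand. It was in the windows of Eya3 and Eya4 and in none of those of Six2, Six4, Six5 and Pax7. A window of Eya4 is printed because Eya4 had the highest of the measured ratios in C2C12-W4-08 over C2C12-PR with the blank spots as background, with its E-box in capitals, from 56 to 51 bases before the start.

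Eya4, chr10:23349841-23350140, minus strand: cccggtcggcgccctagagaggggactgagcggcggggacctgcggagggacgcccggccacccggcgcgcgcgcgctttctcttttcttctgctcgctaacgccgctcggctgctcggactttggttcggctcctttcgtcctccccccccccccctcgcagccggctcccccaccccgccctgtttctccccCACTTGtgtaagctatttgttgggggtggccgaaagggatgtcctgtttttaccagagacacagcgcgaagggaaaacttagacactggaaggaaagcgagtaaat

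The letters CTTTGAT, a core of the sites bound by the TCF and LEF factors of Wnt signaling, were in 3.73% of all windows and in no window of the members or of Myog. The member windows had 57.3% to 69.3% G and C and 15 to 37 CG pairs, against medians of 52.7% and 7 over all windows. A match of letters is a description of the sequence, and none of these matches was measured for binding.

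The arrays carried the marks of their labels. The Wnt4 signal was 4.63 in the differentiated cells and 115 in the Wnt4 line, whereas C2C12-PR gave no detected signal. Signals were normalized to a median of 25 in C2C12-PR. A probe counted as detected from the mean of the 1750 blank spots plus 2 SD upwards, which held for 74.4% of all probes in C2C12-DF, 92.8% in C2C12-W4-08 and 71.8% in C2C12-PR. The blank spots averaged 17.9 scanner units in C2C12-DF, 4.38 in C2C12-W4-08 and 20.4 in C2C12-PR, and their SD was 2.16, 0.803 and 2.95 units in the same order. The lowest detected signal was therefore 2.35 in C2C12-DF, 0.697 in C2C12-W4-08 and 2.72 in C2C12-PR. All 6 myoblast markers (Myod1, Myf5, Des, Cdh15, Itga7 and Vim) were detected on the 3 arrays.

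All members gave dim spots, of at most 55 scanner units. Of the members, 8 were detected in C2C12-DF, 9 in C2C12-W4-08 and 6 in C2C12-PR. Six4, Eya1, Eya3, Eya4 and Pax7, or 5 of 9, were detected on all 3 arrays, as were 67.6% of all probes. Over the 9 genes and 3 arrays, 23 of 27 values were detected, and 18 of 27 also lay above the mean plus 2 SD of the 96 negative control spots (2.58 in C2C12-DF, 1.95 in C2C12-W4-08 and 3.84 in C2C12-PR). Only Six4, Eya1 and Eya3 passed that second limit on every array, and Eya2 passed it on 0. The share of all probes above the second limit was not counted, so these counts describe the members only. Spot medians were whole scanner units, and 1 unit was worth 0.457 of signal in C2C12-DF, 0.431 in C2C12-W4-08 and 0.413 in C2C12-PR.

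**Figure D1:**
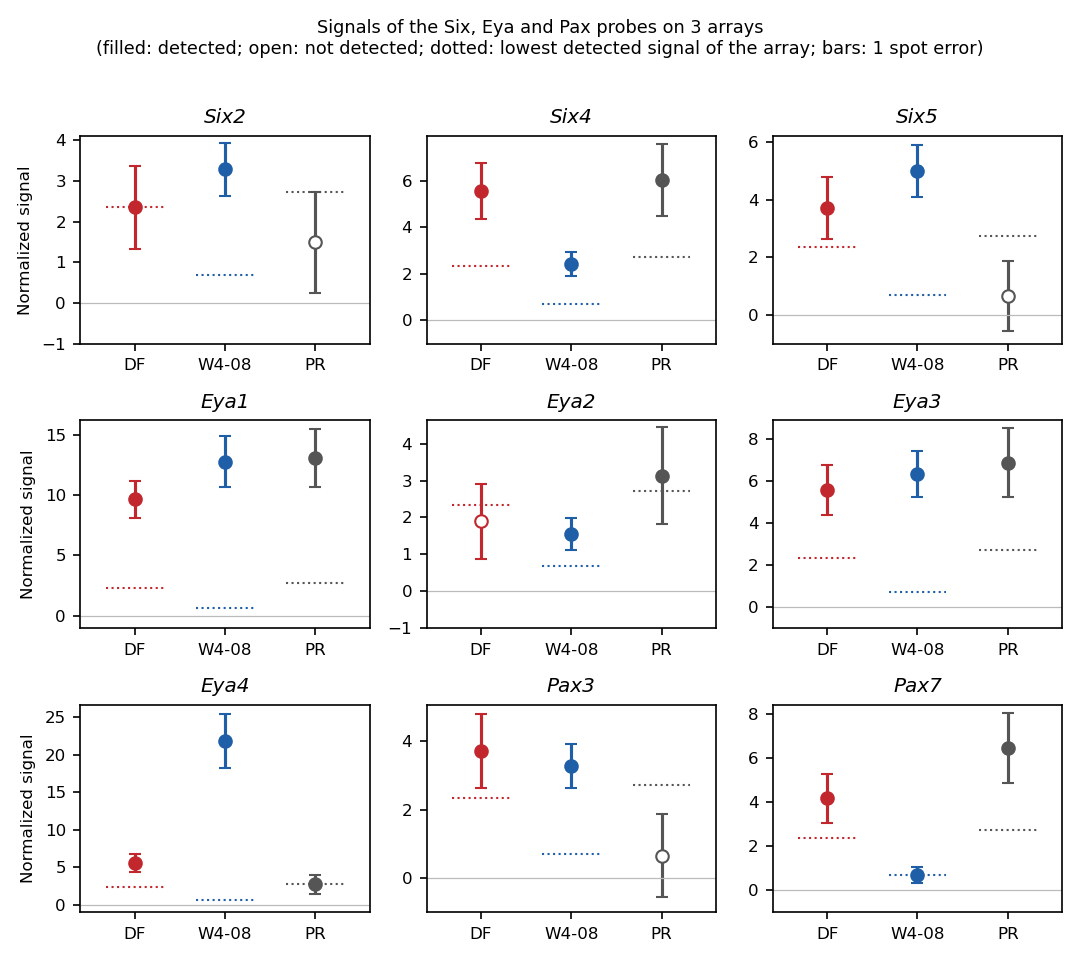
Normalized signal (linear axis, a separate scale for each gene) of the 9 member probes in C2C12-DF, C2C12-W4-08 and C2C12-PR, 1 array each. Filled points were detected and open points were not, bars show 1 spot error, and dotted lines show the lowest detected signal of each array. Eya4 stood at 21.8 in C2C12-W4-08, and Pax7 stood there at the detection limit.

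Of the 27 pairs of arrays and genes, 7 differed by more than 2 spot errors, and these belonged to 4 genes, Six4, Six5, Eya4 and Pax7. The other 5 genes had no such pair. In C2C12-DF against C2C12-PR, 0 of 9 members differed by that much, where 19% of all probes did. In C2C12-W4-08 against C2C12-PR it was 4 of 9, with 24.8% of all probes, and in C2C12-W4-08 against C2C12-DF it was 3 of 9, with 30.5%. The CV in the spot error comes from controls brighter than any member, so the counts of members may be too high. In such bulk RNA, fewer cells that hold a transcript and less transcript per cell cannot be told apart.

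Among the Six-family genes, Six4 was lower in the Wnt4 line. Six4, a factor of the somite and limb bud, gave 5.55 ± 1.20 in C2C12-DF, 2.42 ± 0.528 in C2C12-W4-08 and 6.02 ± 1.55 in C2C12-PR. The C2C12-DF and C2C12-PR signals did not differ beyond their spot error. The log2 ratio was -1.32 ± 0.49 for C2C12-W4-08 over C2C12-PR, or 2.49-fold lower, and -1.20 ± 0.44 for C2C12-W4-08 over C2C12-DF. These differences were 2.20 and 2.39 spot errors. For C2C12-DF over C2C12-PR the log2 ratio was -0.12 ± 0.48. With normexp the ratios of C2C12-W4-08 were -0.16 to C2C12-PR and -0.20 to C2C12-DF, within 2-fold, whereas the local background gave -2.28 and -2.13. Loess put the ratio to C2C12-DF at -0.99, and the unscaled deposited table gave -0.86 to C2C12-PR and -0.64 to C2C12-DF. In scanner units the Six4 spot read 10 in C2C12-W4-08, against blank spots of 4.38, and 35 in C2C12-PR, against blank spots of 20.4.

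Six5 encodes a Six-family protein whose gene lies beside Dmpk, the gene expanded in myotonic dystrophy. It gave 3.72 ± 1.09 in C2C12-DF and 5.01 ± 0.895 in C2C12-W4-08, whereas it was undetected in C2C12-PR. Its bound against C2C12-PR was at least 1.84-fold higher for C2C12-W4-08, with at least 1.37-fold for C2C12-DF. The own signal of the undetected C2C12-PR spot was 0.661, from which C2C12-W4-08 differed by 2.87 spot errors and C2C12-DF by 1.87. Six2, known for keeping kidney progenitors undifferentiated, gave 2.35 ± 1.03 in C2C12-DF and 3.28 ± 0.643 in C2C12-W4-08, whereas it was undetected in C2C12-PR, where its own signal was 1.49. No pair of arrays differed by more than 2 spot errors for Six2, and its bound was at least 1.21-fold higher in C2C12-W4-08.

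Among the Eya genes, the highest signal was that of Eya4 in C2C12-W4-08 and that of Eya1 in C2C12-DF and C2C12-PR. Eya4 is known from hereditary hearing loss and cardiomyopathy in man. Eya4 gave 5.55 ± 1.20 in C2C12-DF, 21.8 ± 3.61 in C2C12-W4-08 and 2.72 ± 1.29 in C2C12-PR, where it lay at the lowest detected signal. C2C12-W4-08 stood above the other arrays. Its log2 ratio was 3.0 ± 0.73 over C2C12-PR, or 8.01-fold, and 1.98 ± 0.39 over C2C12-DF, or 3.93-fold. These differences were 4.97 and 4.27 spot errors. The C2C12-PR spot passed the blank limit but not that of the negative control spots, and where a value had to reach blank mean plus 3 SD the ratio to C2C12-PR became a bound of at least 2.45 on the log2 scale. C2C12-DF over C2C12-PR gave 1.03 ± 0.75 on the log2 scale, or 2.04-fold, which was 1.60 spot errors and did not separate these arrays.

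The size of the Eya4 ratio depended on the background. The Eya4 spot read 55 scanner units in C2C12-W4-08 with 33 units in the ring around it, and 27 in C2C12-PR with 13 around it. With this local background subtracted in place of the blank spots, the log2 ratio to C2C12-PR was 1.18, and with a normexp correction and an offset of 50 it was 0.35. Over C2C12-DF, the local background gave 0.23 and normexp 0.046, neither of them past 2-fold. In C2C12-W4-08 the ring held 60% of the spot for Eya4, and a median of 33.4% for the 1149 spots of at least 1000 units.

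Eya1, the Eya gene of branchio-oto-renal syndrome, gave 9.66 ± 1.53 in C2C12-DF, 12.8 ± 2.13 in C2C12-W4-08 and 13.0 ± 2.41 in C2C12-PR. These levels did not differ beyond their spot error, and C2C12-DF had a log2 ratio to C2C12-PR of -0.43 ± 0.35, with -0.03 ± 0.36 for C2C12-W4-08. Eya3, a widely expressed Eya gene, gave 5.55 ± 1.20 in C2C12-DF, 6.30 ± 1.10 in C2C12-W4-08 and 6.85 ± 1.64 in C2C12-PR, with log2 ratios of -0.30 ± 0.46 and -0.12 ± 0.43. None of the 3 pairs of arrays separated for either gene. With the local background, Eya1 stood at -1.28 in C2C12-W4-08 over C2C12-PR, past 2-fold, which made 4 members lower there.

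Eya2, an Eya gene of the somite, was at the limit of the assay. It was not detected in C2C12-DF, where its own signal was 1.89, and gave 1.56 ± 0.431 in C2C12-W4-08 and 3.14 ± 1.32 in C2C12-PR. The log2 ratio of C2C12-W4-08 over C2C12-PR was -1.01 ± 0.73, past 2-fold but only 1.14 spot errors. The print block of this probe had a median log2 ratio of -0.77 over all its probes, and centred on its block Eya2 stood at -0.24. A loess fit gave 0.067 and normexp 0.15. Against the lowest detected signal of C2C12-DF, the bound was at least 1.33-fold lower than C2C12-PR. That difference was 0.748 spot errors, neither signal passed the limit of the negative control spots, and the arrays were not separated.

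Pax7 had the lowest ratio of the members in C2C12-W4-08 over C2C12-PR with the blank spots as background, but not with the local background, where Six4, Eya2 and Eya1 were lower. It gave 4.18 ± 1.11 in C2C12-DF, 0.697 ± 0.365 in C2C12-W4-08 and 6.44 ± 1.59 in C2C12-PR. The C2C12-W4-08 value was the lowest detected signal of that array, and it lay below the limit of the negative control spots. The log2 ratio was -3.21 ± 0.84 for C2C12-W4-08 over C2C12-PR, or 9.24-fold lower, and -2.58 ± 0.85 for C2C12-W4-08 over C2C12-DF. These differences were 3.51 and 2.98 spot errors. For C2C12-DF over C2C12-PR the log2 ratio was -0.62 ± 0.52, or 1.16 spot errors. Its direction was not stable, with 0.72 by the local background, 0.23 by normexp and 0.039 in the unscaled deposited table.

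Here too the spot readings show how the fold was reached. The Pax7 spot read 6 scanner units in C2C12-W4-08 over blank spots of 4.38, so that a step of 1 unit would move the signal by 0.431. It read 36 in C2C12-PR, with 27 units in the ring around it, and 27 in C2C12-DF. Where only values above blank mean plus 3 SD were kept, Pax7 was undetected in C2C12-W4-08 and its log2 ratio to C2C12-PR was a bound of -2.52. Quantile normalization gave -1.80, the local background -1.05 and normexp 0.094. Eya4 and Pax7 lay in the same of the 48 print blocks and had opposite ratios there, and the median log2 ratio of that block was -0.02 for C2C12-W4-08 over C2C12-PR.

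Pax3, the Pax factor of the somite and of the muscle precursors that migrate into the limb, gave 3.72 ± 1.09 in C2C12-DF and 3.28 ± 0.643 in C2C12-W4-08, whereas it was undetected in C2C12-PR, where its own signal was 0.661. Its bounds against C2C12-PR were at least 1.37-fold higher for C2C12-DF, and 1.21-fold for C2C12-W4-08. None of its 3 pairs of arrays differed by more than 2 spot errors. The log2 ratio of C2C12-W4-08 over C2C12-DF was -0.18 ± 0.51.

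Counted by size, C2C12-DF over C2C12-PR had 1 member at least 2-fold higher, Eya4, and 0 lower among the 5 detected on both arrays, with 4.91% of all such probes higher and 4.54% lower. C2C12-W4-08 over C2C12-PR had 1 of 6 higher, Eya4, with 8.55% of all probes, and 3 of 6 lower, Six4, Eya2 and Pax7, with 11% of all probes. Among the 5432 probes of like mean signal, 10.7% were higher and 13.5% lower. C2C12-W4-08 over C2C12-DF had 1 of 8 higher, Eya4, and 2 of 8 lower, Six4 and Pax7, with 9.37% and 12.5% of all probes. The comparisons share arrays, and these counts are descriptions.

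The median log2 ratio was -0.30 over the 5 members detected in both C2C12-DF and C2C12-PR. Over the 6 detected in both C2C12-W4-08 and C2C12-PR it was -0.56. That of all probes was set to 0 in these comparisons. The -0.56 leaves out Six2, Six5 and Pax3, undetected in C2C12-PR, whose bounds in C2C12-W4-08 lay above 0. With no detection rule the median of all 9 members there was -0.031, against -0.17 over all probes. In C2C12-W4-08 over C2C12-DF the median of 8 members was 0.29, against 0.029 over all probes. Probes of the same range of mean signal lay between -1.19 and 1.02 from the 10th to the 90th percentile in C2C12-W4-08 over C2C12-PR. Six4, Pax7 and Eya4 lay outside that range, as part of such probes do by definition. The range pooled mean signals from 2.35 to 12.9, whereas Pax7 in C2C12-W4-08 lay at the lowest detected signal, 0.697. In C2C12-DF over C2C12-PR the range was -0.79 to 0.81, and Eya4 lay outside it.

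**Figure D2:**
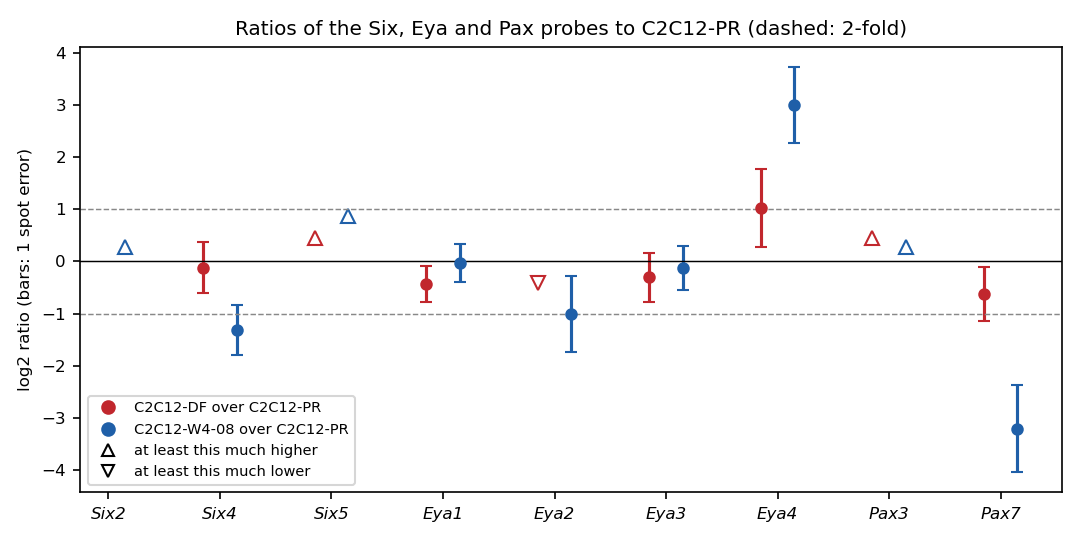
Log2 ratio to C2C12-PR of each member in C2C12-DF and C2C12-W4-08 (vertical axis), with bars of 1 spot error and dashed lines at 2-fold. Open triangles are bounds, where 1 of the arrays did not detect the probe. Eya4 stood at 3.0 and Pax7 at -3.21 in C2C12-W4-08.

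Only Eya1 and Eya4 were detected on all arrays with a mean signal of at least 10, and the probes nearest to them in the 2 log2 ratios to C2C12-PR were looked up among 9885 named probes. Nearest to Eya4 were 8430432A02Rik at a distance of 0.0905, Gsdm2 at 0.169 and Ufm1 at 0.235, and 1 probe lay within 0.1. Nearest to Eya1 were Exdl2 at 0.0131, Fance at 0.0157 and Ccdc18 at 0.0223, and 87 probes lay within 0.1. With 3 arrays the measure rests on a pair of ratios.

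Of the other 11 Six-family, Dach and Pax genes followed, 5 were detected on each pair of arrays. The only one past 2-fold against C2C12-PR was Pax8, lower in C2C12-DF, as were 4.54% of all probes. The corepressor gene Dach1 gave 69.9 in C2C12-DF, 61.5 in C2C12-W4-08 and 90.6 in C2C12-PR, within 2-fold. Dach2 was detected only in C2C12-W4-08, at the lowest detected signal.

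Some known targets of the Six-family and Eya proteins were past 2-fold, in both directions. Of 13 such genes, 11 had a probe and 9 could be compared with C2C12-PR. In C2C12-DF 3 of 9 were at least 2-fold higher and 1 lower, against 4.91% and 4.54% of all probes. In C2C12-W4-08 1 was higher and 1 lower, near the 8.55% and 11% of all probes. Ckm, muscle creatine kinase, was undetected in C2C12-PR, with lower bounds on the log2 scale of 5.93 for C2C12-DF, with 1.11 for C2C12-W4-08. Myog, whose promoter is printed above, gave 961 in C2C12-DF, 23.96 in C2C12-W4-08 and 46.5 in C2C12-PR, with log2 ratios of 4.37 and -0.95. It was higher in C2C12-DF, and a link to the levels of the Six-family and Eya members was not tested. Tnnc1, the slow and cardiac troponin C with a MEF3 site known in its enhancer, gave 3821 in C2C12-DF, 86.9 in C2C12-W4-08 and 62.5 in C2C12-PR. Slc12a2, the sodium, potassium and chloride cotransporter, had log2 ratios of 1.69 in the differentiated cells and 1.41 in the Wnt4 line. Myod1 gave 184 in C2C12-DF, 74.4 in C2C12-W4-08 and 207 in C2C12-PR, a log2 ratio of -1.47 in C2C12-W4-08.

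**Figure D3:**
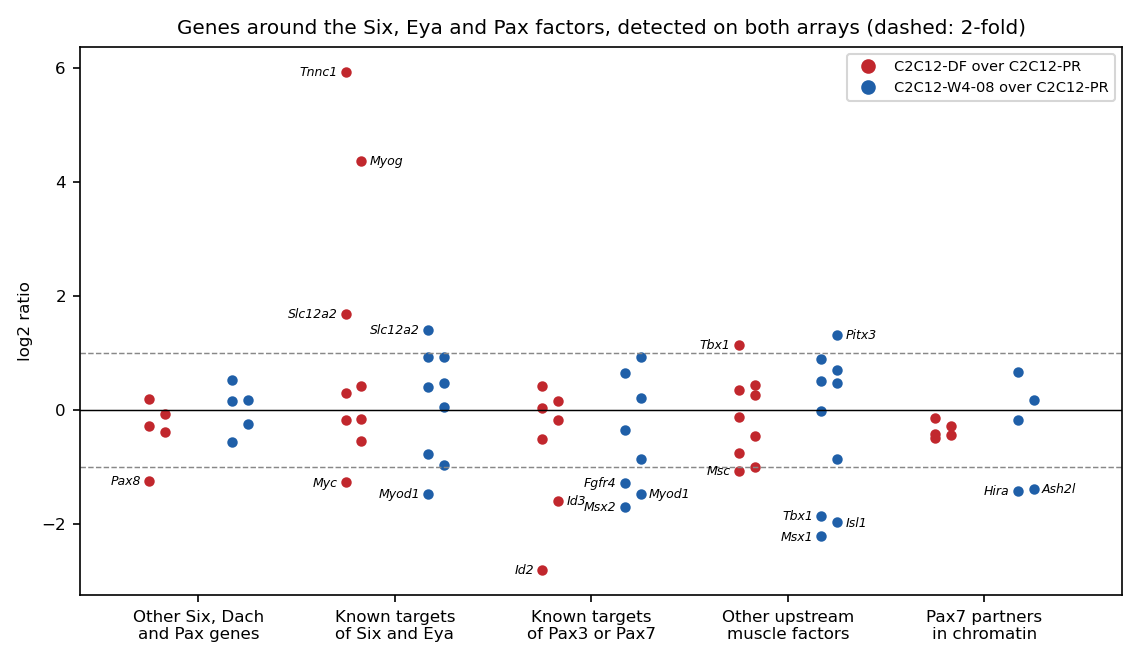
Log2 ratio to C2C12-PR (vertical axis) of the genes detected on both arrays in 5 lists around the Six-family, Eya and Pax factors, with C2C12-DF left and C2C12-W4-08 right in each list and dashed lines at 2-fold. Names are given past 2-fold. Myog stood at 4.37 in C2C12-DF, and Msx1 at -2.21 in C2C12-W4-08.

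Of 10 genes known to be bound or induced by Pax3 or Pax7, 7 could be compared in C2C12-DF and 8 in C2C12-W4-08. None was 2-fold higher in either, and 2 were lower in C2C12-DF, Id2 and Id3, and 3 in C2C12-W4-08, Myod1, Msx2 and Fgfr4. Of all probes, 4.91% were higher and 4.54% lower in C2C12-DF, with 8.55% and 11% in C2C12-W4-08. Msx2 was undetected in C2C12-DF, where its bound was -1.45 on the log2 scale, also past 2-fold, and Fgfr4 lay at the lowest detected signal of C2C12-PR. Id2 and Id3, inhibitors of the muscle regulatory factors, were lower in C2C12-DF by log2 ratios of -2.80 and -1.60 and stood at -0.34 and 0.66 in C2C12-W4-08. Myf5, the muscle regulatory gene that Pax7 switches on in satellite cells, gave 81.8 in C2C12-DF, 117 in C2C12-W4-08 and 60.9 in C2C12-PR. Its highest signal was in C2C12-W4-08, within 2-fold of C2C12-PR. A link to Pax7, which lay at the detection limit there, was not tested. Met, the receptor through which Pax3 acts on migrating precursors, gave 13.3 in C2C12-DF, 21.8 in C2C12-W4-08 and 18.8 in C2C12-PR.

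Of 5 genes for chromatin partners of Pax7 with a probe, none passed 2-fold in C2C12-DF, where 9.45% of all probes did. In C2C12-W4-08 2 were lower, against 11% of all probes. These were Ash2l, a subunit of histone methyltransferase complexes, at a log2 ratio of -1.38, and Hira, a histone chaperone, at -1.41. Among 13 other upstream factors of trunk, limb and head muscle with a probe, 10 could be compared in C2C12-W4-08. Of these 1 was higher and 3 lower, against 8.55% and 11% of all probes. Pitx3, a homeodomain factor of muscle, was the higher one at 1.32, and Msx1, a repressor of Myod1, was lower at -2.21. The other lower genes were Tbx1, which gave 12.4 in C2C12-DF, 1.56 in C2C12-W4-08 and 5.61 in C2C12-PR, and Isl1. Isl1 lay at the lowest detected signal of both C2C12-W4-08 and C2C12-PR, so that its ratio is that of the detection limits. Zic1, a zinc finger factor of the somite, stood at 0.90. In C2C12-DF 9 could be compared, with 1 higher and 1 lower, against 4.91% and 4.54% of all probes. The lower one was Msc, a repressor beside Eya1 on chromosome 1, at -1.06.

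Of 13 satellite cell markers, Pax7 included, 6 were at least 2-fold lower and 0 higher in C2C12-W4-08 over C2C12-PR, where 11% of all probes were lower. Cdh15 stood at -2.91, Cxcr4 at -2.01 and Itga7 at -1.70, whereas Calcr stood at 0.90 and Met at 0.21, and all 13 were detected on each array. Of the 6 myoblast markers, which share Cdh15 and Itga7 with that list, 3 were lower and 0 higher, with a median log2 ratio of -1.01. The myoblast genes summed to 15389 in C2C12-DF, 11298 in C2C12-W4-08 and 15740 in C2C12-PR, where Vim alone gave 12673. The satellite cell markers summed to 3357 in C2C12-DF, 740.7 in C2C12-W4-08 and 2167 in C2C12-PR. Most of the C2C12-PR sum came from Itga7 and Cdh15, at 759 and 704, which gave 234 and 93.8 in C2C12-W4-08. In C2C12-DF 3 of the 13 satellite cell markers were at least 2-fold higher and 1 lower, against 4.91% and 4.54% of all probes. The 5 myotube genes summed to 11765 in C2C12-DF, 278.8 in C2C12-W4-08 and 221.1 in C2C12-PR.

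Markers of other cell types were detected in part. The 4 osteoblast genes with a probe summed to 14.9 in C2C12-DF, 23.6 in C2C12-W4-08 and 15.4 in C2C12-PR, with Ibsp undetected on every array. The 5 adipocyte genes summed to 40.5 in C2C12-DF, 134.0 in C2C12-W4-08 and 69.9 in C2C12-PR, with Adipoq undetected. The 4 neuron genes summed to 216.7 in C2C12-DF, 82.9 in C2C12-W4-08 and 303.1 in C2C12-PR, with Syt1 undetected, and Tubb3 alone gave 179 in C2C12-DF, 29.1 in C2C12-W4-08 and 268 in C2C12-PR. The 4 endothelial genes summed to 7.50 in C2C12-DF, 10.97 in C2C12-W4-08 and 3.63 in C2C12-PR, where none of them was detected. Pecam1 and Tek were undetected on every array. The part of these genes in the ratios of Six4, Eya4 and Pax7 was not tested.

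**Figure D4:**
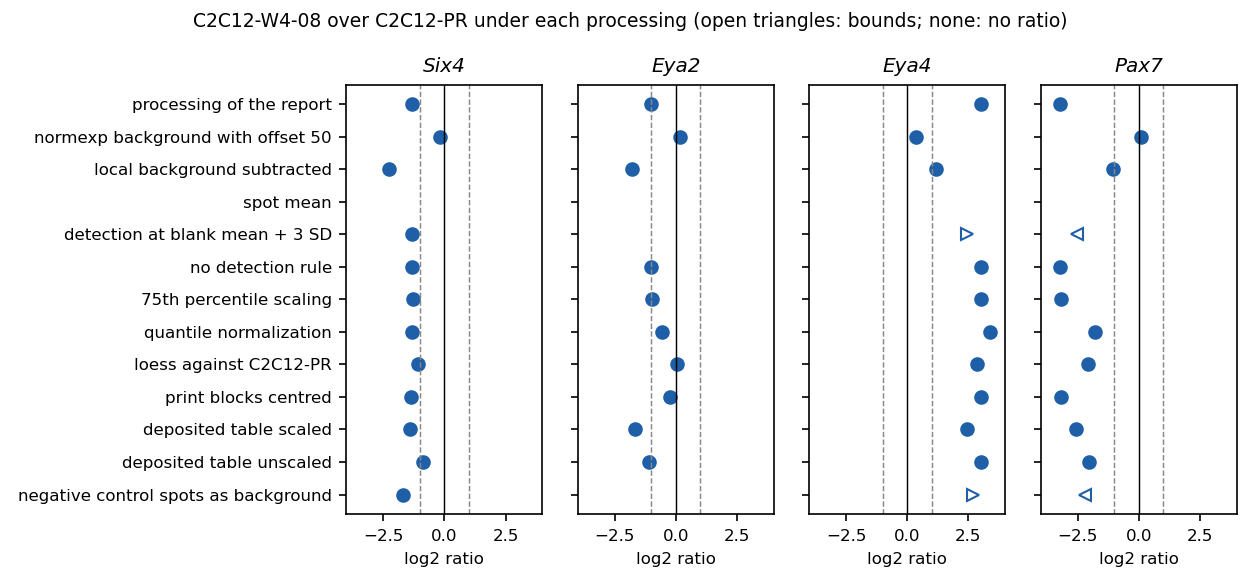
Log2 ratio of C2C12-W4-08 over C2C12-PR (horizontal axis) of Six4, Eya2, Eya4 and Pax7 under the processing of the report and each of its alternatives (rows), with dashed lines at 2-fold. Triangles are bounds, and an empty row gave no ratio. Eya4 ran from 0.35 to 3.36 and Pax7 from -3.21 to 0.094.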

How the data were processed

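Total RNA of 3 C2C12 cultures was hybridised to 3 single-dye Toray 3D-Gene mouse arrays of 25392 spots, 1 for each condition, with nothing pooled. The methods name Isogen for the extraction, whereas the labels name the miRNeasy Mini Kit. The authors deposited scanner intensities unsubtracted and unscaled, as a spot median, a spot mean and a local background. A table of processed signals deposited by the authors holds the same arrays, each with a median of 25.0. It is linear and uncentred, correlates with the signals used here at r = 0.997 on the log2 scale over the detected probes of each array, and has an unknown spot summary and background. Its gene values served as an alternative.

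The background was the mean of 1750 blank spots, taken from each spot median, and the limit of detection was that mean plus 2 SD. Each array was then multiplied so that its ratios to C2C12-PR, over probes detected on both, had a median of 1, with C2C12-PR at a median of 25. Where 1 array did not detect a probe, the other was set against the lowest detected signal, which gave a bound. Such a bound takes no account of the spot error of the detected signal. The spot error combined the SD of the blank spots with the mean CV of 3 positive controls of 24 spots each (12.2% in C2C12-DF, 16.5% in C2C12-W4-08 and 16.0% in C2C12-PR). The dimmest of these controls, still brighter than any member, had a CV of 21.2% in C2C12-DF, 21.5% in C2C12-W4-08 and 28.5% in C2C12-PR. The mean CV may therefore understate the error of the members. The spot error covers noise within an array and says nothing of cultures. Replicate arrays would be needed for a p-value, and none was computed.

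The members, lists and markers were chosen with earlier results of these data known. Named genes were the members and, per list, up to 4 genes of the largest ratios with a signal of at least 20 on 1 array, besides genes tied to a member by role. Pax8, Ckm, Msx2, Fgfr4, Tbx1, Isl1 and Calcr fell outside this rule and were named after their values were seen, to complete small counts or show the other direction. A further listed gene is not reported here. A gene with several probes entered a list by the brightest one. The steps were tested on simulated data, in which known fold changes were given only to probes with a C2C12-PR signal above every member signal. Recovery of a known change at the dim signals of the members was not tested. The work was done with pandas 2.3.3 and numpy 2.4.6 in Python 3.11.15, and limma 3.58.1 in R 4.3.3 for normexp and loess (span 0.3). Gene names of all 9 members matched the RefSeq table of GRCm38.p6, used for neighbours, and promoter sequences came from RefSeq. The build of the probes is not given in the sources used here.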

Additional observations from a re-analysis of the deposited data

How the results depend on the processing

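Of the 265 values that 12 other settings gave for 25 single ratios of the members, 215 moved by less than the spot error (for bounds, the median spot error of the comparison). These 215 include the setting with no detection rule, which left every single ratio as it was, so the count is no measure of stability. Of all values 18 changed sign, of which 15 belonged to ratios within 2-fold and 3 to ratios past it. These 3 were the ratio of C2C12-W4-08 over C2C12-PR, which became 0.15 for Eya2 and 0.094 for Pax7 with normexp, and 0.067 for Eya2 with loess. That ratio ran from -2.28 to -0.16 for Six4, and from 0.35 to 3.36 for Eya4. Normexp with an offset of 50 adds 50 scanner units to each spot, against spot medians of at most 55 for the members. It left 0 members 2-fold higher in C2C12-DF over C2C12-PR, 0 higher and 0 lower in C2C12-W4-08 over C2C12-PR and over C2C12-DF, and put the median of C2C12-W4-08 over C2C12-PR at 0.048. The local background gave 4 lower in C2C12-W4-08 over C2C12-PR, and 0 higher in C2C12-DF over C2C12-PR and in C2C12-W4-08 over C2C12-DF, with a median of -0.30 in that last comparison. With spot means, a blank spot at 3590 units raised the blank SD of C2C12-PR to 86.3 units, so that 0 members were detected on all 3 arrays, 0 were higher in C2C12-DF over C2C12-PR, and 0 were higher or lower in C2C12-W4-08 over C2C12-PR and over C2C12-DF.

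Detection at blank mean plus 3 SD kept 3 members on all arrays, as did the negative control spots as background, a setting chosen after seeing the data. Either gave 0 higher in C2C12-DF over C2C12-PR, 0 higher and 1 lower in C2C12-W4-08 over C2C12-PR, and 1 lower in C2C12-W4-08 over C2C12-DF. Under these settings Eya4 became a bound against C2C12-PR, Pax7 became a bound against both other arrays (-1.90 and -1.51 over C2C12-DF), and Eya2 gave no ratio. With no detection rule all 9 counted as detected. Loess gave 1 lower in C2C12-W4-08 over C2C12-DF, where Six4 stood at -0.99. The deposited table had 8 members on all arrays. Scaled, it gave 2 higher in C2C12-W4-08 over C2C12-PR, and unscaled 3, with a median of 0.29, and 3 higher and 1 lower in C2C12-W4-08 over C2C12-DF. Unscaled, the median of all probes stood at 0.57 in C2C12-W4-08 over C2C12-PR and at 0.14 in C2C12-DF over C2C12-PR. At 1.5-fold 1 member was lower in C2C12-DF over C2C12-PR. At 4-fold 0 were higher there, 1 was lower in C2C12-W4-08 over C2C12-PR, and 0 were higher and 1 lower in C2C12-W4-08 over C2C12-DF.

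Among all probes past 2-fold, 43.6% were higher in C2C12-W4-08 over C2C12-PR, against 18.7% with normexp, 23.3% with no detection rule and 85.1% in the unscaled table. In C2C12-DF over C2C12-PR the share was 52.0%, against 33.6% with normexp, 36.4% with spot means and 70.5% in the unscaled table. All members gave dim spots, and only 18 of the 27 member values lay above the limit set by the negative control spots. The member ratios are to be read with that in mind. No paired analysis was possible because each condition had 1 array, and for the same reason no replicate could be left out.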
